A study of Mus musculus with 16 samples.

Results

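ISG15 is a small ubiquitin-like protein that interferon induces and that cells couple to other proteins with a set of enzymes of its own. UBA7 activates ISG15 (E1), UBE2L6 carries it (E2), and the ligase HERC6 is regarded as the main enzyme that attaches it in the mouse (E3). TRIM25, a ubiquitin ligase of antiviral RNA sensing, can attach ISG15 too, and the protease USP18 removes ISG15 from its targets and restrains the receptor for type I interferon. In the intestine, interferon acts on epithelial cells as part of their defence against viruses and bacteria.

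The 6 genes Isg15, Uba7, Ube2l6, Herc6, Trim25 and Usp18 were picked by gene symbol from 3 count tables, which list 52636 genes (crypts), 54532 genes (KO IEC organoids) and 52636 genes (KO CAG organoids), with 52525 in common. All 6 were present in each table. They were selected with the KO and WT counts known, so their differences between KO and WT are given as descriptions and support nothing by themselves. Where the text counts members that meet the call rule of the fit over all genes, the count is a description too, beside the share of all genes that meet it.

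The study deleted Cul4b, the scaffold of the CRL4B ubiquitin ligase, in the mouse small intestine (strain C57BL/6) and measured RNA by sequencing. Crypts, the epithelial pockets that hold the stem cells, came from 4 WT and 4 KO IEC libraries, and organoids, epithelial cultures grown from crypts, from 2 WT and 2 KO IEC libraries and from 2 WT and 2 KO CAG libraries. KO IEC stands for pVillin-Cre; Cul4b fn/Y, in which the Villin promoter drives Cre in the intestinal epithelium from development on, and its WT was Cul4b fn/Y without Cre. KO CAG stands for CAG-CreERT2; Cul4b fn/Y, in which Cre was induced in culture with 4-OHT (4-hydroxytamoxifen). Whether the WT organoids beside KO CAG carried CreERT2 or received 4-OHT is not given in the sources used here. The study used adult mice for most experiments, and the age of the animal behind each library is not given. Because each experiment was a separate preparation, levels are compared within an experiment only.

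Total counts per library ran from 9311734 to 13479974 in the crypts, from 15006730 to 16881395 in the KO IEC experiment and from 7348191 to 10462275 in the KO CAG experiment. A floor of 3 counts was worth 0.223 to 0.322, 0.178 to 0.2 and 0.287 to 0.408 CPM (counts scaled to the total of their library) in the same order, and covers counting error only. Cul4b itself lay at 31.7 to 38.3 CPM in WT crypts and 0.848 to 2.21 CPM in KO crypts, at 73.2 and 83.2 against 1.69 and 1.76 CPM in the KO IEC experiment, and at 70.1 and 72.9 against 3.34 and 5.19 CPM in the KO CAG experiment. Summed epithelial markers (Epcam, Vil1, Cdh1, keratins and Cdx factors) were at 6657 CPM or more in every library. The crypt libraries fell apart by mitochondrial ribosomal RNA, which held under 100 CPM in WT replicate 1 and KO replicates 1 to 3, 833 and 1107 CPM in WT replicate 4 and KO replicate 4, and 2740 and 2737 CPM in WT replicates 2 and 3. Results in the crypts that bear on this are given with it below.

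Positions are those of GRCm38. Isg15 (ENSMUSG00000035692) lies on chromosome 4 from 156199424 to 156200818 on the minus strand and has 756 exonic bases. Uba7 (ENSMUSG00000032596) lies on chromosome 9 from 107975505 to 107984060, Ube2l6 (ENSMUSG00000027078) on chromosome 2 from 84798828 to 84810335, and Herc6 (ENSMUSG00000029798) on chromosome 6 from 57581000 to 57664632. Trim25 (ENSMUSG00000000275) lies on chromosome 11 from 88999376 to 89020293, and Usp18 (ENSMUSG00000030107) on chromosome 6 from 121245906 to 121270917, all 5 on the plus strand. The 4 genes that overlap Uba7, Herc6 or Usp18 in the annotation held between 0 and 8 counts over all libraries of an experiment, few beside the counts of the genes they overlap in the crypts.

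Interferon-regulated genes often carry the element GAAANNGAAA, to which the interferon-activated complex ISGF3 binds, or the shorter core AANNGAAA of IRF factors, which every GAAANNGAAA contains. Both were searched on both strands in the RefSeq promoter windows of GRCm38.p6, which run from 250 bases before to 50 bases after a transcription start. Of the 6 genes, 5 matched a window, and Usp18 did not. Isg15 held 3 overlapping copies of GAAANNGAAA between 78 and 57 bases before its start. Uba7 held a single AANNGAAA 27 to 20 bases before its start, and Trim25 held a single AANNGAAA that spans its start, both on the reverse strand. Neither motif was found in the windows of Ube2l6 and Herc6. The matching stretches are shown 5′ to 3′ on the strand of the gene, with capitals for GAAANNGAAA in Isg15 and for AANNGAAA in the others. They lie at chr4:156200850-156200921 (minus strand), chr9:107975529-107975558 and chr11:88999388-88999406 (plus strand). The RefSeq starts of Uba7 and Trim25 lie downstream of the starts in the count tables, so both of their matches fall inside the genes as the tables place them.
Isg15: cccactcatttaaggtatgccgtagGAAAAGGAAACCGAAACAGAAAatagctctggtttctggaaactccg
Uba7: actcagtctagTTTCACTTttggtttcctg
Trim25: ctcctgttcagTTTCGATT

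GAAANNGAAA occurred in 3.44% of all 32851 promoter windows and AANNGAAA in 23.9%, so the single short copies in Uba7 and Trim25 are of a common kind. Counted by gene over any window, GAAANNGAAA occurred in 3.99% of 27025 genes and AANNGAAA in 26.7%. Of 18 other type I interferon target genes with a window, 8 held GAAANNGAAA and 15 held AANNGAAA. Of 24 genes of ubiquitin and other ubiquitin-like proteins, 0 and 6 did, near the shares of all genes.

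In the crypts the modifier, its ligase and its protease stood furthest apart between genotypes. Usp18, Herc6 and Isg15 were about 3 to 5 times higher in KO IEC than in WT, Ube2l6 was near 2 times higher, and Trim25 and Uba7 lay closer to WT. Isg15 was at 14.0, 8.20, 5.12 and 12.6 CPM in the WT libraries (replicates 1 to 4) and at 26.0, 36.2, 24.5 and 31.8 CPM in the KO libraries. Every KO library exceeded every WT library, and the log2 fold change from the fit was 1.57 (SE 0.29). In RNA from whole crypts, more cells of a type and more RNA per cell cannot be told apart.

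The enzymes upstream of the ligase differed less. Uba7, the E1, was at 60.6, 45.8, 34.5 and 44.7 CPM in WT and 49.0, 69.2, 96.5 and 72.1 CPM in KO, so that KO replicate 1 lay within the WT range (log2 fold change 0.63, SE 0.22). Ube2l6, the E2, was at 22.7, 19.8, 9.91 and 25.6 CPM in WT and 26.4, 43.4, 52.6 and 44.3 CPM in KO. The groups of Ube2l6 touched closely, with KO replicate 1 just above WT replicate 4, and the log2 fold change was 1.10 (SE 0.29).

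The ligases differed from each other. Herc6 was at 7.16, 3.96, 2.32 and 6.43 CPM in WT and 17.4, 20.0, 29.2 and 16.1 CPM in KO, with a log2 fold change of 2.06 (SE 0.34). Trim25 was at 126, 134, 120.2 and 112 CPM in WT and 177, 242, 217 and 164 CPM in KO, with a log2 fold change of 0.70 (SE 0.135). For both, no KO library fell within the WT range, but Trim25 was the abundant ligase with the small difference and Herc6 the scarce one with the large difference.

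Usp18, the protease, had the largest difference of the 6. It was at 4.92, 5.18, 1.92 and 3.055 CPM in WT and 15.2, 20.1, 17.1 and 18.3 CPM in KO, and its log2 fold change was 2.24 (SE 0.28). The KO libraries of Usp18 were close together, with an SD of 2.04 CPM around a mean of 17.7 CPM (n = 4), beside 1.56 CPM around 3.77 CPM in WT (n = 4).

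Every KO library was above every WT library for 5 of the 6 genes, Uba7 being the exception. Over all 13427 genes tested, 8.7% had this pattern. A gene was called when the Benjamini-Hochberg adjusted p of edgeR's quasi-likelihood test over all genes was under 0.05 and the change at least 2-fold. Isg15, Herc6 and Usp18 met this rule (3 of 6), beside 1.44% of all genes tested that were called higher in KO. The calls moved with single libraries. Without WT replicate 1 or WT replicate 3, 1 of 6 (Usp18) met the rule. Without WT replicate 2, KO replicate 2 or KO replicate 3, 0 of 6 did. Calls over all genes fell too, from 240 of 13427 to 20 of 13646 without WT replicate 1 and 11 of 13618 without WT replicate 3. They were 3 of 13695, 2 of 13748 and 2 of 13705 without WT replicate 2, KO replicate 2 and KO replicate 3. The sizes moved little, from 2.01 to 2.42 for Usp18, 1.81 to 2.29 for Herc6 and 1.35 to 1.78 for Isg15 with each library left out in turn. The median log2 fold change of the 6 was 1.34, beside -0.01 over all genes tested. WT replicate 3 was the lowest WT library for 5 of the 6 genes, Trim25 excepted, and KO replicate 1 the lowest KO library for Uba7, Ube2l6 and Usp18.

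**Figure D1:**
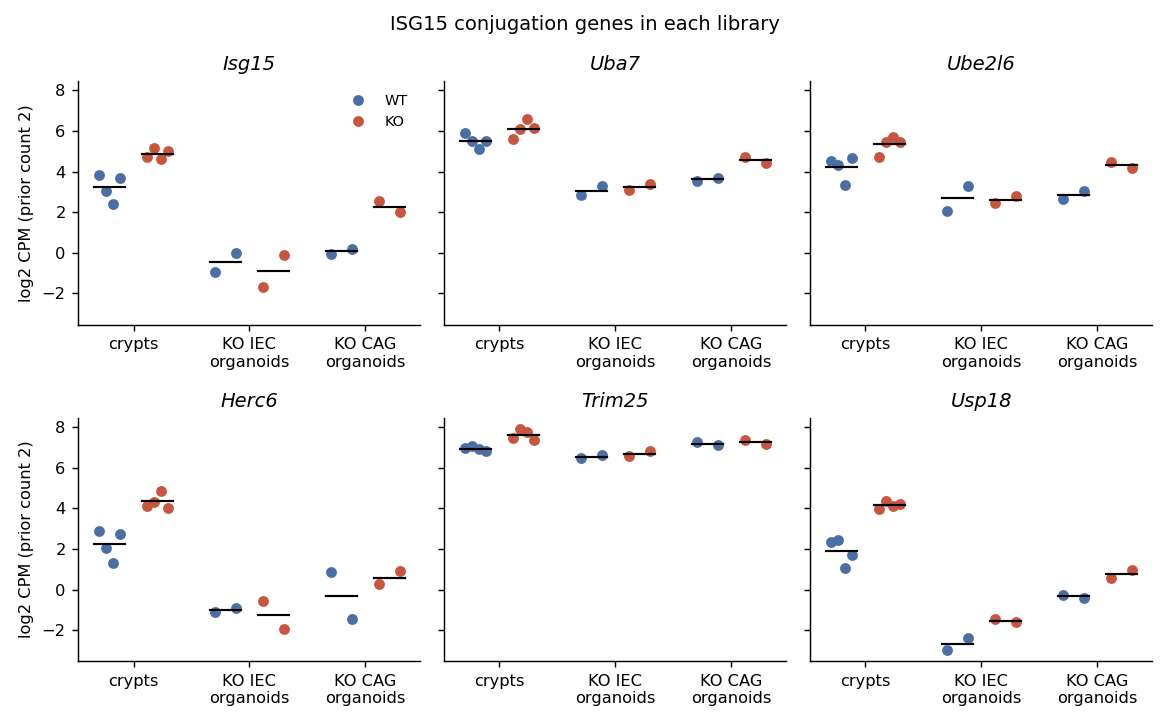
Each dot is a library and each bar a group mean of log2 CPM with a prior count of 2 (y axis), for WT and KO of the 3 experiments (x axis), with a panel for each gene. In the crypts the KO libraries sit above the WT libraries for every gene but Uba7, and in the KO IEC organoids Isg15, Uba7, Ube2l6, Herc6 and Trim25 overlap between genotypes.

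All 6 genes were higher in KO within the classes of mitochondrial ribosomal RNA that hold both genotypes. In the low class, with WT replicate 1 against KO replicates 1 to 3, log2 CPM was higher in KO by 1.02 for Isg15, 0.79 for Ube2l6, 1.57 for Herc6, 0.73 for Trim25 and 1.78 for Usp18, and by 0.19 for Uba7. In the middle class, with a single library per genotype, the differences ran from 0.55 (Trim25) to 2.51 (Usp18). The high class held WT libraries only. With the class as a covariate the log2 fold changes ran from 0.42 (Uba7) to 2.12 (Usp18), and 0 of the 6 met the call rule. Over all 13427 genes tested, 2 met it in that fit.

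In the KO IEC organoids, which carry the same deletion, none of the 4 members tested differed between genotypes by more than the spread between libraries. Isg15 held 7 and 13 counts in WT and 3 and 12 counts in KO, or 0.403 and 0.863 against 0.181 and 0.810 CPM. Its log2 fold change was -0.36 (SE 0.88), so that this design could show neither a rise nor a fall of that size. Uba7 was at 6.97 and 9.82 CPM in WT and 8.50 and 10.4 CPM in KO. Ube2l6 was at 4.03 and 9.76 CPM in WT and 5.36 and 6.75 CPM in KO, both KO libraries lying between the WT libraries.

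Trim25 was the member with many counts here, at 89.4 and 98.6 CPM in WT and 95.6 and 113 CPM in KO (log2 fold change 0.15, SE 0.17). Herc6 (6 and 6 counts in WT, 9 and 2 in KO) and Usp18 (0 and 1 counts in WT, 4 and 3 in KO) did not pass the filter on low counts. For Usp18 the ratio of KO to WT per total count was 6.99 with a 95% counting interval from 0.898 to 315, which covers counting error only. Of the 4 members tested, 0 were called by edgeR, beside 0.00717% of 13938 genes, and their median log2 fold change was -0.02. For Isg15 the sign of the difference rested on single libraries, with log2 fold changes from -1.75 to 0.36 when each was left out, the highest without KO replicate 1 and the lowest without KO replicate 2. Without WT replicate 1, Ube2l6 was at -0.69, and without WT replicate 2 at 0.57.

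In the KO CAG organoids the modifier and the enzymes that load it were higher in KO than in WT, while Trim25 was nearly level. Isg15 held 6 and 7 counts in the WT libraries and 41 and 39 counts in the KO libraries, or 0.723 and 0.907 against 5.70 and 3.75 CPM. This was the largest difference among the members tested in the 3 experiments (log2 fold change 2.49, SE 0.41), with a ratio per total count of 5.49 and a 95% counting interval from 3.04 to 10.8. The level stayed low, near 1 CPM in WT.

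Uba7 was at 11.6 and 12.8 CPM in WT and 25.7 and 21.3 CPM in KO (log2 fold change 0.94, SE 0.16). Ube2l6 was at 6.02 and 8.16 CPM in WT and 22.1 and 18.1 CPM in KO (log2 fold change 1.496, SE 0.205). For both enzymes the groups were apart, and here the E2 differed more than the E1, as it did in the crypts; whether the 2 genes differed from each other was not tested.

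For Herc6 the WT libraries lay as far apart as the whole range of the KO libraries or more, with 13 and 1 counts in WT and 7 and 17 counts in KO. Its log2 fold change was 0.63 (SE 0.71), and it was 3.22 without WT replicate 1 and -0.22 without WT replicate 2. Trim25 was at 152 and 139 CPM in WT and 163 and 145 CPM in KO, overlapping, with a log2 fold change of 0.08 (SE 0.09). Usp18 did not pass the filter on low counts. It held 5 and 4 counts in WT and 9 and 18 counts in KO, a ratio per total count of 2.68 with a 95% counting interval from 1.22 to 6.47.

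Of the 5 members tested in the KO CAG organoids, 2 were called (Isg15 and Ube2l6), beside 6.36% of 13598 genes called higher. With all 16 libraries in 1 fit only Isg15 met the rule. With at least 10 counts required in every library only Ube2l6 did, since Isg15 was then not tested. Over all genes these fits called 273 of 15585 and 843 of 12562. The KO libraries were above the WT libraries for 3 of the 5 (Isg15, Uba7 and Ube2l6), a pattern that 35.5% of all genes had with 2 libraries a group. The median log2 fold change of the 5 was 0.94, beside 0.001 over all genes.

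**Figure D2:**
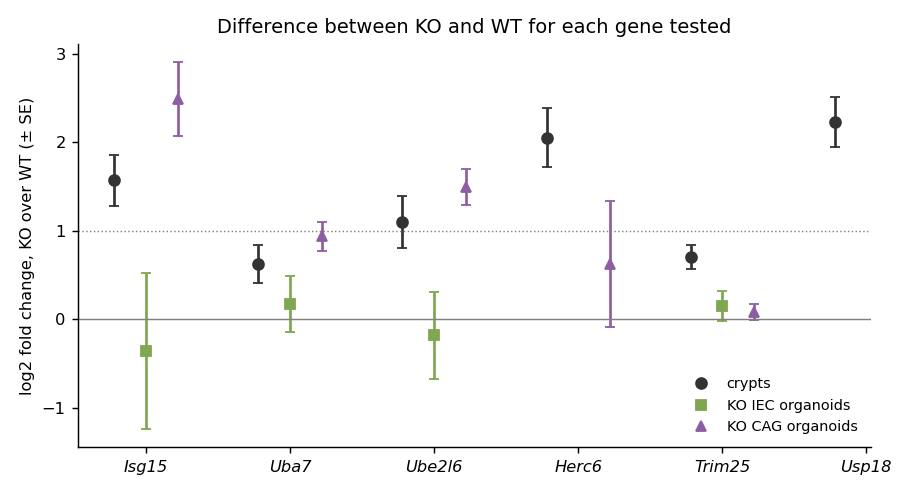
Points give the log2 fold change of KO over WT (y axis) for each gene (x axis) in each experiment, with bars of 1 standard error. The solid line marks no difference and the dotted line a 2-fold difference. Herc6 and Usp18 in the KO IEC organoids and Usp18 in the KO CAG organoids held too few counts and have no point. Isg15 is at 1.57 in the crypts, -0.36 in the KO IEC organoids and 2.49 in the KO CAG organoids, while Trim25 stays under 1 in all 3.

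The order of the members by level was compared per length, as TPM (counts per exonic base, scaled to a common total in each library). Exonic bases were merged over all annotated transcripts, 6692 for Uba7 with 15 transcripts and 756 for Isg15 with 1. Where cells use shorter transcripts the TPM is too low, so the order of members, Uba7 and Isg15 among them, depends on these lengths. In WT crypts Trim25 was highest at 50.3 ± 6.18 TPM (SD, n = 4), followed by Isg15 at 30.8 ± 12.1, Ube2l6 at 22.8 ± 7.49 and Uba7 at 16.3 ± 3.96 TPM. Usp18 at 3.19 ± 1.41 and Herc6 at 1.25 ± 0.542 TPM came last. Each of these neighbours overlapped in range except Uba7 and Usp18. In KO crypts Isg15 stood first at 93.9 ± 19.8 TPM, ahead of Trim25 at 83.6 ± 18.4 TPM, but their ranges overlapped (75.9 to 121 against 63.6 to 107 TPM). Ube2l6 followed at 49.7 ± 12.5, Uba7 at 25.5 ± 6.52, Usp18 at 15.2 ± 2.14 and Herc6 at 5.32 ± 1.5 TPM.

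Organoids had another order. Trim25 was highest in each of the 8 organoid libraries, at 43.9 to 49.6 TPM in the KO IEC experiment and 67.2 to 74.1 TPM in the KO CAG experiment. Ube2l6 came next, at 5.71 and 13.1 TPM in WT and 8.03 and 8.46 TPM in KO of the former, and at 8.20 and 11.4 TPM in WT and 24.2 and 29.0 TPM in KO of the latter. Isg15 ranked below Uba7 in WT organoids of the KO CAG experiment (2.60 and 3.34 against 4.69 and 5.33 TPM) and above it in KO (19.7 and 13.2 against 10.1 and 8.52 TPM). Herc6 and Usp18 were under 2 TPM in all organoid libraries, with a highest value of 1.66 TPM, so the ligase HERC6 and the protease USP18 had few transcripts there in either genotype.

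**Figure D3:**
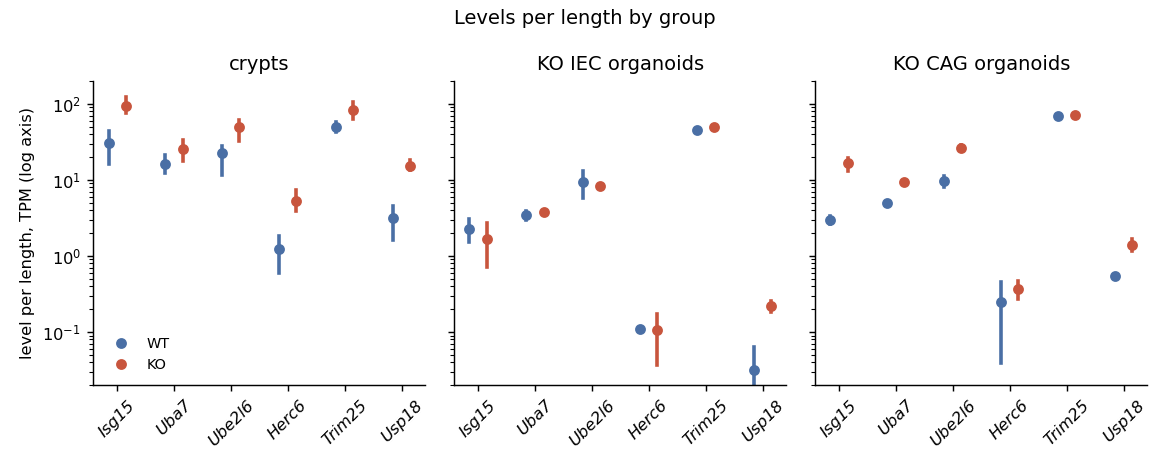
Dots are group means and lines the range over libraries of the level per length in TPM (log y axis, cut at 0.02) for each gene (x axis), WT and KO side by side, with a panel for each experiment. Trim25 is highest in WT crypts and in all organoid groups, and Isg15 has the highest mean, 93.9 TPM, in KO crypts.

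The wider interferon pathway was described with 80 genes in 5 lists: receptors, JAK kinases, STAT and IRF factors (18), interferon ligands (10), RNA and DNA sensors (11), other type I interferon targets (25) and genes of the interferon gamma response (16). Like the members, these lists were drawn up with results of these counts known. In the crypts 67 were tested, and 21 rose and 0 fell by the rule given above, beside 1.44% of all genes called higher. The other type I targets held 18 of these 21, out of 25 tested, with a median log2 fold change of 1.32. Trim30a, an interferon-induced TRIM protein, rose most, from 3.55 ± 1.62 (SD, n = 4) to 24.5 CPM, a log2 fold change of 2.79 (SE 0.42, adjusted p = 0.0259). Ifi44 followed at 2.47 (SE 0.47, adjusted p = 0.0397) and Oas3, which makes 2-5A in response to double-stranded RNA, at 2.33 (SE 0.32, adjusted p = 0.0226). The count of 21 was 0 by edgeR when the ribosomal RNA class was a covariate. In that fit 40 of 67 had an unadjusted p under 0.05, beside 18.7% of all genes. It was also 0 with enterocyte markers as a covariate, where 34 of 67 had, beside 13.5% of all genes. It fell to 9 without WT replicate 1 and to 4 without WT replicate 3. It was 0 by edgeR without WT replicate 2, KO replicate 2 or KO replicate 3, where an unadjusted p under 0.05 was reached by 50, 38 and 44 of 67, beside 24%, 25.5% and 23.5% of all genes, while DESeq2 on all 8 libraries called 25. The median of the type I targets stayed between 1.19 and 1.44 with each library left out.

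Upstream of the targets the changes in the crypts were smaller. Irf7, the factor that sustains interferon production, rose by a log2 fold change of 1.39 (SE 0.22, adjusted p = 0.0298) and was called alone among 18 receptor and factor genes. For Stat2 and Irf9, factors that act on Isg15, the values were 0.69 (SE 0.175, adjusted p = 0.0493, under 2-fold) and 0.50 (SE 0.13, adjusted p = 0.0533). The sensors Ddx58 (RIG-I, the receptor that TRIM25 acts on) and Dhx58 rose, 2 of 11 tested. Of 13 interferon gamma response genes tested, 0 were called by edgeR, 4 had an unadjusted p under 0.05, beside 31.9% of all genes, and DESeq2 called 2.

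No interferon ligand passed the filter. The 10 ligands summed to at most 0.563 CPM in any WT crypt library and 0.53 CPM in any KO crypt library, to 0 in the KO IEC experiment and to at most 0.518 CPM in WT and 0 in KO of the KO CAG experiment. Levels of single ligands at or under the floor of 3 counts were not detectable at this depth.

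In the KO CAG organoids 13 of 53 tested genes rose and 0 fell, beside 6.36% of all genes called higher. They were 8 of 17 other type I targets, 3 of 8 interferon gamma response genes, and Irf7 and Ifnar2 among 17 receptor and factor genes. Oas3 (2.46, SE 0.58, adjusted p = 0.00958) and Cxcl10, a chemokine that attracts T cells (2.45, SE 0.58, adjusted p = 0.00978), were among the 3 largest changes. The largest was Nlrc5, an activator of MHC class I genes, at 3.46 (SE 0.79, adjusted p = 0.00839), but it rested on 2 counts in WT against 27 in KO, a ratio of 12.0 with a 95% counting interval from 3.03 to 105. Irf7 was at 1.85 (SE 0.24, adjusted p = 0.000363), Stat2 at 0.53 (SE 0.11, adjusted p = 0.00463) and Irf9 at 0.50 (SE 0.15, adjusted p = 0.0298).

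In the KO IEC organoids edgeR called 0 of 50 genes of these lists, with 3 at an unadjusted p under 0.05 beside 4.66% of all genes, and DESeq2 called 0. Irf7 was at 0.15 (SE 0.45), Stat2 at 0.21 (SE 0.25) and Irf9 at -0.04 (SE 0.25). In counts simulated with the spread of this experiment 8.25% of 2-fold and 77.1% of 4-fold changes reached an adjusted p under 0.05. The shares were 66.7% and 97.9% in the crypts and 88% and 97.9% in the KO CAG organoids. The 2-fold part of the call rule was not applied here, and with it the shares can only be lower or the same. The changed genes were drawn from all levels, and low-count genes were not examined apart.

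The difference between experiments in the effect of the deletion was tested for 69 genes of these lists as an interaction in a fit of all 16 libraries. At an adjusted p under 0.05 edgeR gave 0 genes in each of the 3 contrasts. At an unadjusted p under 0.05 there were 22 of 69 for crypts against KO IEC organoids, beside 6.96% of all genes. For crypts against KO CAG organoids there were 6 of 69, beside 14.4% of all genes. For KO CAG against KO IEC organoids there were 13 of 69, beside 10.9% of all genes. By the adjusted p, the interferon genes called in the crypts and in the KO CAG organoids were not shown to respond differently in the KO IEC organoids.

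Ubiquitin and the enzymes of other ubiquitin-like proteins served as a comparison. Of these 35 genes, all tested, edgeR and DESeq2 called 0 in each experiment, and 9, 0 and 9 had an unadjusted p under 0.05 in the crypts, the KO IEC organoids and the KO CAG organoids, beside 31.9%, 4.66% and 43% of all genes. Their median log2 fold changes were -0.02, 0.02 and 0.04. Uba1, the E1 of ubiquitin, was at 0.10, 0.14 and 0.27, and Ube2l3, the close relative of Ube2l6 that carries ubiquitin, at -0.14, 0.05 and 0.25 in the same order. The E1 and E2 of ISG15 were at 0.63 and 1.10 in the crypts and at 0.94 and 1.496 in the KO CAG organoids. In the KO IEC organoids they were at 0.17 (SE 0.31) and -0.18 (SE 0.50).

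**Figure D4:**
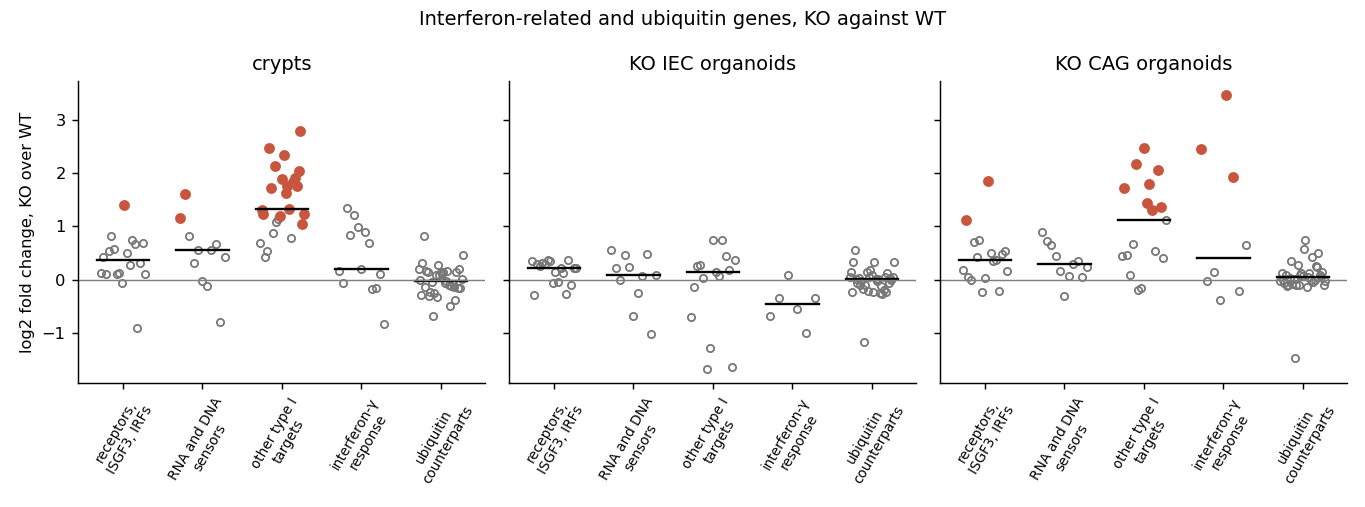
Each circle is a tested gene, placed by its list (x axis) and its log2 fold change of KO over WT (y axis), with a panel for each experiment. Filled circles are genes that met the call rule and bars are medians. The type I targets have medians of 1.32 in the crypts, 0.15 in the KO IEC organoids and 1.11 in the KO CAG organoids, and the ubiquitin genes stay near 0.

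Markers of enterocytes, the absorptive cells, were higher in the KO CAG organoids than in their WT, with values for each experiment as follows. Their sum (Alpi, Apoa1, Apoa4, Apoc3, Fabp1, Fabp2, Sis, Krt20 and Ada) was 1966 to 8435 CPM in WT crypts and 6873 to 15900 CPM in KO crypts, overlapping at a single pair of libraries. In crypts 9 of the 9 had a positive log2 fold change, 0 were called by edgeR, 7 had an unadjusted p under 0.05, beside 31.9% of all genes, and DESeq2 called 4. In the KO CAG organoids the sum was 4044 and 4456 CPM in WT against 11830 and 9433 CPM in KO. There 7 of the 9 were called higher, beside 6.36% of all genes. In the KO IEC organoids the sum was 5512 and 9616 against 3837 and 12190 CPM. None was called by edgeR or DESeq2 there, and 1 had an unadjusted p under 0.05, beside 4.66% of all genes.

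With the mean log2 CPM of these markers as a covariate, a fit added after the data were seen, the values of the members in the crypts spread further apart. Usp18 stayed at 2.09 (SE 0.39), Herc6 at 1.48 (SE 0.34), Isg15 at 1.15 (SE 0.31) and Trim25 at 0.78 (SE 0.19). Ube2l6 was at 0.41 (SE 0.24) and Uba7 at 0.19 (SE 0.25), both under 2 times their error. None of the 6 met the call rule in this fit, and over all 13427 genes tested 1 did. The part of the enterocyte share in the values without the covariate was not tested further.

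Lymphocytes inside the epithelium also carry interferon-induced genes. Summed markers of lymphocytes ran from 38.1 to 144 CPM in WT crypts and from 68.1 to 418 CPM in KO crypts, overlapping, and with their mean as a covariate the log2 fold changes of the members ran from 0.43 (Uba7) to 2.19 (Usp18). Of the 12 tested lymphocyte markers, edgeR called 0, DESeq2 called 1, and 1 had an unadjusted p under 0.05 in edgeR, beside 31.9% of all genes. Their median log2 fold change was 1.24, and 9 of the 12 were positive. The rest were the B cell and plasma cell markers Cd79a (-1.18), Ms4a1 (-1.06) and Jchain (-0.09). The mean used as the covariate took in these too, so it did not follow lymphocytes inside the epithelium alone. In the organoids the sum was 0.648 to 3.17 CPM, and 6 of the 13 markers, Cd8a and Gzma among them, were at 0 in all libraries of each experiment. In the KO CAG experiment it was 0.648 and 2.05 CPM in WT and 2.50 and 3.17 CPM in KO.

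**Figure D5:**
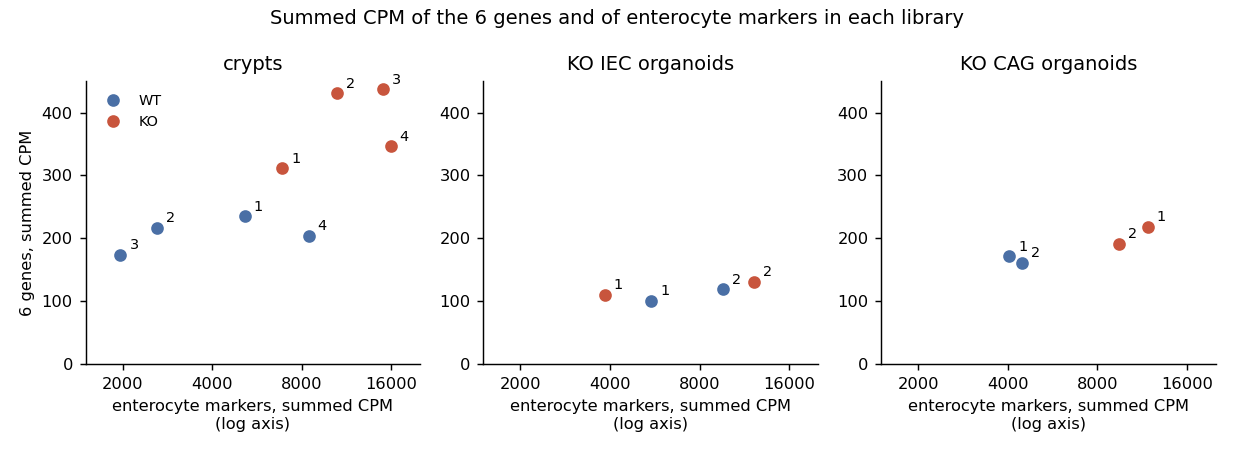
Each dot is a library, numbered by replicate, with the summed CPM of enterocyte markers (log x axis) and of the 6 members (y axis), and a panel for each experiment. In the crypts the members sum to 174 to 236 CPM in WT and 311 to 437 CPM in KO. WT replicate 4 and KO replicate 1 are the pair whose enterocyte sums overlap (8435 and 6873 CPM), with members at 204 and 311 CPM. Trim25 made up 112 and 177 CPM of these sums. In this pair Uba7 (44.7 and 49.0 CPM) and Ube2l6 (25.6 and 26.4 CPM) were nearly level. Isg15 (12.6 and 26.0 CPM), Herc6 (6.43 and 17.4 CPM) and Usp18 (3.055 and 15.2 CPM) were further apart.

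Variation among libraries of the same group was compared after each group's mean had been taken out, so that the genotype difference did not enter. Over 16 libraries Uba7 and Ube2l6 went together most closely (r = 0.845), followed by Isg15 and Ube2l6 (r = 0.714). Trim25 (r from 0.068 to 0.44) and Herc6 (r from -0.058 to 0.434) followed the others less. With Isg15, Herc6 was at -0.058 over 16 libraries but at 0.737 over the 8 crypt libraries, where its counts were higher. These values are descriptions, and the libraries share their experiment, depth and cell makeup.

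Among 12474 genes tested in all 3 experiments, those whose within-group pattern was most like the mean of the members were Lct (lactase, r = 0.886 over 16 libraries), B4gat1 (0.88), Btnl7-ps (0.879), Arhgef19 (0.865), Pard6b (0.863), Ace (0.862), Gdpd2 (0.862), Trim12a (0.862), Samhd1 (0.85) and Anpep (0.846). Lct, Ace and Anpep encode enzymes of the enterocyte brush border. The median r of all genes compared was -0.043. Of 48 genes of the interferon lists compared, 0 were in the first 10. These lists do not hold every gene that interferon induces, and Trim12a and Samhd1 were on none of them. The first 50 of the 12474 genes held 2 of the 48, at ranks 23 and 45, a larger share than that of all genes. Among the listed enterocyte markers Apoa1 came first, at rank 183.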

How the data were processed

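RNA-seq libraries were prepared and sequenced by Novogene, and the authors deposited 3 tables of raw counts for each gene, not normalized, which also hold gene lengths in bases. The submitters' processing notes name HISAT2 2.0.5 and featureCounts 1.5.0-p3. Strand use, genome build and annotation are not given in the sources used here. Gene positions in the tables matched GENCODE M21 on GRCm38 for at least 95.2% of the genes found there. Genotype and replicate came from the sample titles.

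KO was compared with WT inside each experiment, in 3 separate fits with edgeR 4.0.16 in R 4.3.3 (filterByExpr, TMM factors, quasi-likelihood F test, Benjamini-Hochberg adjustment over all tested genes). Called means an adjusted p under 0.05 and at least a 2-fold change. SE was taken from the log2 fold change and the F statistic (|log2 fold change| / √F). CPM is TMM-scaled and log2 CPM has a prior count of 2. The study calls its replicates biological; where libraries share an animal or culture, p-values measure only the spread between these libraries. The steps were tested on simulated data.

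The members and all gene lists were chosen with earlier results of these data known. The genes named are the 6 members, the 3 largest called changes of the interferon lists in each experiment, Stat2, Irf9, Irf7, Uba1, Ube2l3 and the 10 genes most like the members. A further gene of this rule is not reported here. Ddx58, Dhx58 and Ifnar2 were named after their values were seen. Promoters were searched after the counts had been read. Alternatives were DESeq2 1.42.0, other scalings and filters, the adjusted p alone, all 16 libraries in 1 fit, a replicate block, each library left out, and covariates (mitochondrial ribosomal RNA class, bounds 100 and 2000 CPM, and marker means, the latter added after the data were seen).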

Additional observations from a re-analysis of the deposited data

Results flagged for a closer look

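Among 30 groups of 4 crypt libraries checked for a value far from the rest (15 genes, WT and KO apart), 1 stood out: Trim30a in WT replicate 3, at 1.12 CPM, below the other WT libraries, whose highest was 4.43 CPM. Chance alone marks about 1 in 20 groups. WT replicate 3 was also the lowest WT library for 5 of the 6 ISG15 conjugation genes, for enterocyte markers (1966 CPM) and for lymphocyte markers (38.1 CPM).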

How the results depend on the processing

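In the crypts all 60 member log2 fold changes under other settings and all 48 with a library left out kept their direction. The median of the members went from 1.34 to 0.96 with enterocyte markers as a covariate. The crypt counts of called genes were fragile. From 240 genes they went to 527 without a low-count filter, 515 with DESeq2, 934 by the adjusted p alone, 439 with all 16 libraries, 2 with the ribosomal RNA class and 1 with enterocyte markers. The interferon lists went from 21 to 0 under both covariates, with 40 and 34 genes at an unadjusted p under 0.05. Leaving out single libraries gave 2 to 643 genes and 0 to 24 list genes: 9 without WT replicate 1, 0 without WT replicate 2, 4 without WT replicate 3, and 0 without KO replicate 2 or 3, with 38 to 50 at an unadjusted p under 0.05 in these 3 fits with 0. Scaling by library size alone moved the share of called crypt genes that were higher from 80.8% to 70.3%.

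In the KO IEC organoids the 1 called gene became 185 without a filter, 26 with DESeq2, 16 with all 16 libraries, and 0 to 1118 with a library left out, the 1118, and 2 instead of 0 list genes, coming without KO replicate 1. In the KO CAG organoids 1169 genes became 4278 by the adjusted p alone and 273 with all 16 libraries, and 13 list genes became 8 with at least 10 counts in every library, 29 by the adjusted p alone and 5 with all 16 libraries. There the median of the members, 0.94 over 5 genes, was 1.18 without a filter and 1.17 with all 16 libraries, over 6 genes because Usp18 entered, and 1.074 to 1.395 with a library left out. The cause of the other shifts was not tested.

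Replicate numbers did not pair the crypt libraries: same-numbered libraries deviated together with r from -0.395 to 0.434. With 2 libraries a group, the organoid experiments could not show whether the numbers pair. There r was 0.342 for same and -0.342 for crossed numbers with KO IEC, and 0.067 and -0.067 with KO CAG. Mitochondrial ribosomal RNA in the KO IEC experiment was at 1379 (WT) and 1189 CPM (KO) in replicate 1. In replicate 2 it was at 2167 and 2674 CPM. A batch shared by number was not tested. With the replicate block the crypt fit called 4 genes, 1 list gene and 0 of 6 members in place of 3, the median of the members was 1.38, and the organoid counts were 1 and 1209 genes.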
